A study of Mus musculus with 4 samples.

Results

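The 10 cytokine and ligand genes studied here, of helper T cells and innate lymphocytes, were followed through the tumour-draining lymph nodes of melanoma-bearing mice by single-cell RNA sequencing. The genes were chosen by symbol and comprise 7 secreted cytokines (Il2, Il4, Il10, Il17a, Il21, Ifng and Csf2) and 3 ligands of the tumour necrosis factor (TNF) family that are held on the cell membrane (Cd40lg, Tnfsf8 and Tnfsf11), which makes 10 of the 31053 genes in the count table. All animals were C57BL/6J mice carrying B16F10 tumours, a transplanted mouse melanoma line, in both thighs. The treated group was 2 mice that received indoximod in the drinking water at 2 mg/ml from day 9, ibrutinib at 350 µg a day into the peritoneum and cyclophosphamide at 150 mg/kg on day 10, and the control group was 2 untreated mice. Indoximod is an inhibitor of the indoleamine 2,3-dioxygenase pathway, ibrutinib inhibits Bruton's tyrosine kinase, and cyclophosphamide is an alkylating drug that depletes dividing lymphocytes. The inguinal nodes were taken 48 hours after cyclophosphamide. Each barcode carries a library number from 1 to 4, which the labels do not tie to a mouse or a group. The libraries are therefore given 1 by 1, no comparison of treated with control mice is made, and every comparison is between cell classes within each library. On this footing the spread between libraries holds treatment, mouse and preparation together.

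Helper T cells act on their neighbours largely through these molecules, which are transcribed for a short time after the T cell receptor meets antigen. Interleukin (IL)-2 drives T cell growth, IL-4 and IL-21 together with CD40 ligand help B cells in the follicle, interferon-gamma arms macrophages and raises antigen presentation, and IL-17A recruits neutrophils. CD30 ligand (Tnfsf8) and RANK ligand (Tnfsf11) act through cell contact on activated lymphocytes and on dendritic cells or osteoclast precursors. In a lymph node at rest most T cells are naive, so messages of the secreted cytokines are usually found in small activated, innate-like or natural killer (NK) populations.

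Of 30824 barcodes, 26096 had at least 300 detected genes and at most 10% of unique molecular identifiers (UMIs, counts of single captured transcripts) from mitochondrial genes. Libraries 1 to 4 kept 5667, 5758, 6335 and 8336 cells, above the roughly 2000 cells per sample that the labels state, from totals of between 39589629 and 53643414 UMIs a library, and 86 of 30738 barcode sequences occurred in more than 1 library. Cells were placed in classes by UMIs of marker genes, T cells needing at least 2 UMIs of the CD3 genes Cd3d, Cd3e and Cd3g. Among them, 403 Treg-gated cells had Foxp3, 286 gamma-delta-gated cells had Trdc, 6257 CD8-gated cells had Cd8b1 and 2871 CD4-gated cells had Cd4, in each case with none of the others except that Treg-gated cells could also carry Cd4. A further 2847 T cells had none of these 4 genes detected. The NK-gated class held 72 cells (11, 17, 21 and 23 in libraries 1 to 4), the B-gated class 9079 and the myeloid-gated class 835. Several genes outside the gates went with the labels. Cd8a was found in 86.5% of CD8-gated and 1.5% of CD4-gated cells, Il2ra in 58.8% of Treg-gated and Tcrg-C1 in 42.3% of gamma-delta-gated cells. Eomes and Gzma were found in 63.9% and 72.2% of NK-gated cells, of which 22.2% had Trdc. None of the NK-gated cells had Cd3e. Cells with at least 2 UMIs of the CD3 genes were gated as T cells first, so this is no independent check. Cd163l1 and Sox13 were found in only 12.9% and 8.74% of gamma-delta-gated cells, and Zbtb7b in 19.6% of CD4-gated cells. Ighm, a B cell gene, was also found in 59.7% of CD4-gated, 72.4% of CD8-gated and 55.6% of NK-gated cells. Its level was 199 CPM in CD4-gated against 2050 CPM in B-gated cells. Hbb-bs, a red cell gene, was found in 3.95% to 63.9% of CD4-gated cells by library. A set of 2272 cells with markers of more than 1 lineage was kept apart as mixed, and Scrublet, a doublet caller, marked 35.7% of these and 0.104% of CD4-gated cells as doublets. Only 6 cells met a gate for innate lymphoid cells and 1 a gate for basophils, so neither is compared. Levels are UMIs per 1000000 UMIs of a class in a library (CPM), with 95% Poisson intervals, and shares of cells have Clopper-Pearson intervals, both covering counting error only. These are 3' tag counts that are not divided by gene length, so levels are compared between classes and not between genes.

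The members differed widely in how often they were caught. Tnfsf8 gave 5356 UMIs in 3858 cells, Cd40lg 3537 UMIs in 2545 cells and Tnfsf11 400 UMIs in 284 cells. Among the secreted members, Il2 gave 226 UMIs in 178 cells, Ifng 207 in 114, Il21 65 in 34, Il4 62 in 42, Csf2 38 in 35, Il17a 23 in 10 and Il10 22 in 18. Barcodes outside the filter held few member UMIs, from 1 for Il4 and Csf2 to 255 for Tnfsf8. A UMI of any secreted member was present in 393 cells, 1.51% of all, and 34 cells held at least 2 of the 7 genes, 10 of them in the mixed set.

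The bases just upstream of the annotated starts are shown for 5 secreted members. They are examples of different arrangements of the short core bound by the receptor-activated factor NFAT. The windows of Csf2, Tnfsf8 and Tnfsf11 are described below and not printed. The 250 bases come from RefSeq on build GRCm38.p6 and run 5′ to 3′ on the strand of the gene. Capitals mark GGAAA or its reverse complement TTTCC, the NFAT core.
Il2, chr3:37125955-37126204, minus strand: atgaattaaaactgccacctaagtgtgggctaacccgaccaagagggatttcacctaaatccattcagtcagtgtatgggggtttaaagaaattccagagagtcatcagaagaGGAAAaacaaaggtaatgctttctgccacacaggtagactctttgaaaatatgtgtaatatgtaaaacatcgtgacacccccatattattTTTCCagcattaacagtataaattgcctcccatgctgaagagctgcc
Il21, chr3:37232637-37232886, minus strand: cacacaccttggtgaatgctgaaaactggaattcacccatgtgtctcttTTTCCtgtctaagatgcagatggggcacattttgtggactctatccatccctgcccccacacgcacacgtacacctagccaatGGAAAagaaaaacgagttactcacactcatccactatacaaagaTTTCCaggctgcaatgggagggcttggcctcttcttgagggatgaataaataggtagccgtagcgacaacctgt
Il4, chr11:53618666-53618915, minus strand: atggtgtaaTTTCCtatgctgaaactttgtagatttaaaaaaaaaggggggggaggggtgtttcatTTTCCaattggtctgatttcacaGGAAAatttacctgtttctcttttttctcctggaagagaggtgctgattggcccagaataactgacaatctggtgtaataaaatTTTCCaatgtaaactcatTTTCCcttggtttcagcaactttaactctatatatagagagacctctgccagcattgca
Ifng, chr10:118440796-118441045, plus strand: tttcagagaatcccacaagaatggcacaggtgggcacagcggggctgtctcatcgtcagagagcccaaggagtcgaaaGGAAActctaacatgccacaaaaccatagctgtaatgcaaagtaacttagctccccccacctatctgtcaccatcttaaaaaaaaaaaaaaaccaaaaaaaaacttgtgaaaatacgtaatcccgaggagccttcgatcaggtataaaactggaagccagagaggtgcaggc
Il17a, chr1:20730655-20730904, plus strand: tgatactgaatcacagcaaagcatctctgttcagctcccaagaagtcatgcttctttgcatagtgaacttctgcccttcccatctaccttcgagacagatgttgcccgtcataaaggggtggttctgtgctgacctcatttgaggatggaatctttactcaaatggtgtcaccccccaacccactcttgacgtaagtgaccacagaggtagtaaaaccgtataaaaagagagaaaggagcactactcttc

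The core occurred 2 times in the window of Il2, 3 times in that of Il21, 5 times in the Il4 window shown, 1 time in that of Ifng and not in that of Il17a. A second annotated start of Il4, at chr11:53617339-53617588 on the minus strand, had no match. Csf2 had 2 matches, and Tnfsf8 and Tnfsf11 had 1 each, in windows at chr11:54249900-54250149, chr4:63861285-63861534 and chr14:78308044-78308293, all on the minus strand. Of all 32851 windows of this length, 55.6% held at least 1 GGAAA on either strand, 21.4% at least 2, 6.39% at least 3 and 1.59% at least 4. TATAAA lay at -31 in Il2 and Il17a, -30 in Ifng and -32 in Tnfsf11, counted from the start, and occurred on either strand in 12.4% of all windows. TGANTCA, the site of AP-1, had 1 match, in Il17a, against 6.75% of all windows, and a loose NF-kB type pattern was in 4 of the 8 members with a window, against 45.8% of all windows. Matches of different motifs were counted separately and may share bases, and a match describes the letters in the window only. In the GENCODE annotation of GRCm38 the gene bodies of Il2 (chr3:37120523-37125959) and Il21 (chr3:37222759-37232636) lie on the same strand of chromosome 3, and those of Il4 (chr11:53602982-53618669) and Csf2 (chr11:54247271-54249667) on the same strand of chromosome 11. Il10 (chromosome 1) and Cd40lg (chromosome X) are named without a sequence.

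Cd40lg, whose product engages CD40 on B cells and dendritic cells and licenses both, was highest in CD4-gated cells, which held 41.3% of its UMIs. Its level was 38.5, 28.0, 42.8 and 16.9 CPM in Treg-gated cells of libraries 1 to 4, against 98.4, 77.4, 84.2 and 78.1 CPM in CD4-gated cells. The ranges did not overlap. It was 3.56, 3.98, 2.77 and 6.51 CPM in CD8-gated cells, 20.3, 8.96, 5.77 and 43.3 CPM in gamma-delta-gated cells, and no UMI was found in NK-gated or myeloid-gated cells. With 72 NK-gated cells a count of 0 is compatible with up to 7.11 CPM, which is above the CD8 level, whereas with 835 myeloid-gated cells the bound is 0.542 CPM. The T cells with none of the 4 gate genes came close to the CD4-gated class, with 74.5, 64.1, 66.5 and 71.6 CPM. By share of cells, Cd40lg was detected in 15.9% of Treg-gated (median 5242 UMIs a cell), 7.34% of gamma-delta-gated (5396.5), 2.38% of CD8-gated (7028) and 34.8% of CD4-gated cells (5743), against 0.143% of B-gated cells (3802), a class that should lack the gene. With every cell thinned to 1500 UMIs, which left out 6 Treg-gated, 5 CD8-gated, 4 CD4-gated and 136 B-gated cells as too shallow, the shares were 5.54%, 0.704%, 11.6% and 0.0559%.

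Tnfsf8 was spread over all T cell classes at similar levels. In libraries 1 to 4 it stood at 25.1, 34.6, 53.2 and 50.6 CPM in Treg-gated cells, 40.7, 86.7, 59.6 and 39.2 CPM in gamma-delta-gated cells, 53.5, 52.7, 45.3 and 50.8 CPM in CD8-gated cells and 55.1, 72.2, 57.1 and 47.4 CPM in CD4-gated cells. The libraries of these classes overlapped. Over all libraries the level was 42.2 CPM in Treg-gated, 50.5 CPM in CD8-gated, 54.8 CPM in gamma-delta-gated and 57.3 CPM in CD4-gated cells, and the counting intervals of neighbours in this ascending order met. NK-gated cells lay below them with 16.6 CPM from 7 UMIs, and myeloid-gated and B-gated cells had 1.08 and 0.370 CPM. The CD8-gated class, the second most numerous, held 44.1% of all Tnfsf8 UMIs, and 28.3% of its cells had at least 1 UMI, against 22.6% of CD4-gated cells. After thinning to 1500 UMIs these shares were 6.80% and 7.12%.

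Tnfsf11, the osteoclast differentiation factor that also sustains dendritic cells, was highest in Treg-gated and then in CD4-gated cells. Its level in libraries 1 to 4 was 15.1, 16.5, 9.08 and 9.09 CPM in Treg-gated cells (9, 10, 7 and 7 UMIs), 1.58, 0.834, 0.336 and 1.07 CPM in CD8-gated cells and 10.9, 8.90, 3.68 and 4.35 CPM in CD4-gated cells. Every library gave a lower value in CD8-gated than in CD4-gated cells, and libraries 1 and 2 were higher than libraries 3 and 4 in both CD4 lineage classes. Gamma-delta-gated cells had 10 UMIs in all (5.77 CPM) and B-gated cells 6 (0.148 CPM).

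**Figure D1:**
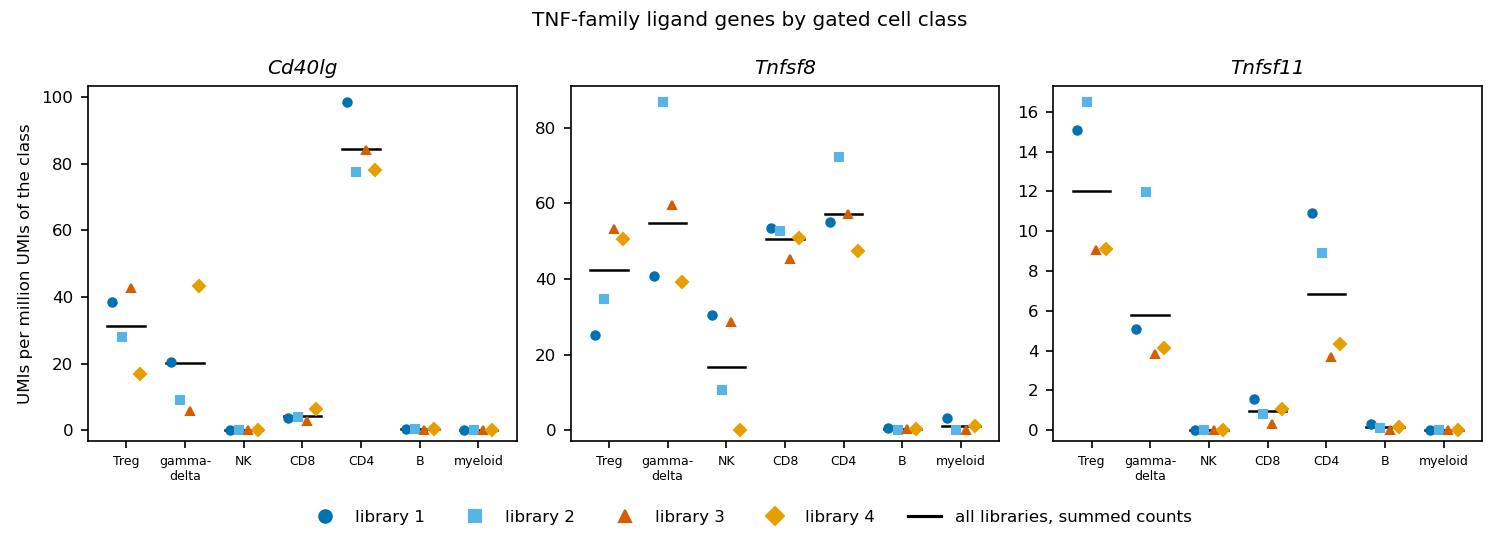
Levels of the 3 TNF-family ligand genes, in CPM, for 7 gated classes on the horizontal axis. Each symbol is 1 of 4 libraries and each black line the level over all libraries. Cd40lg was highest in CD4-gated cells (77.4 to 98.4 CPM), Tnfsf8 overlapped between the T cell classes, and Tnfsf11 was near 0 in CD8-gated cells.

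Ifng, the interferon of type 1 immunity, stood apart in NK-gated cells. These cells held 5, 7, 26 and 8 UMIs in libraries 1 to 4 (76.1, 75.3, 186 and 64.9 CPM), against 2, 6, 5 and 6 UMIs in CD8-gated cells (0.198, 0.556, 0.420 and 0.429 CPM). The libraries of the 2 classes did not overlap. Over all libraries the level was 109 CPM (interval 79.9 to 145) in NK-gated and 0.406 CPM in CD8-gated cells, a log2 ratio of 8.07 (7.27 to 8.92), and without library 3, where 1 cell held 11 UMIs, the NK level was 70.9 CPM. By cells, 22 of 72 NK-gated cells (30.6%, interval 20.2 to 42.5) and 15 of 6257 CD8-gated cells (0.240%) had the gene, against 0.0991% of B-gated cells, and after thinning the shares were 11.6%, 0.0160% and 0.0447%. The CD8 share therefore did not exceed that of B-gated cells at equal depth. Treg-gated cells had 7, 1, 9 and 3 UMIs in 6 cells, the 9 of library 3 all in 1 cell, and gamma-delta-gated cells had 0, 6, 2 and 1 UMIs, the 6 of library 2 in 1 cell. CD4-gated cells had 13, 15, 3 and 0 UMIs in 14 cells. The mixed set held 30, 13, 5 and 3 UMIs, 24.6% of all Ifng UMIs.

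Il2, the T cell growth factor, was detected at low levels in nearly every class. It gave 0, 2, 0 and 1 UMIs in Treg-gated cells, 4, 11, 8 and 9 UMIs in CD8-gated cells (0.396, 1.02, 0.671 and 0.644 CPM) and 14, 20, 17 and 11 UMIs in CD4-gated cells (3.26, 5.23, 3.91 and 2.28 CPM). Each library placed the CD4 value above the CD8 value. The CD8 level over all libraries, 0.684 CPM (0.468 to 0.965), met the interval of B-gated cells, 0.493 CPM (0.301 to 0.761), where 11 of 20 UMIs came from library 1. The thinned shares were 0.0800% of CD8-gated, 0.453% of CD4-gated and 0.0895% of B-gated cells, so the CD8 share was at the level of B-gated cells. T cells with none of the gate genes had 40 Il2 UMIs (2.67 CPM). NK-gated cells had 4 UMIs in 3 cells (9.48 CPM, 2.58 to 24.3) and gamma-delta-gated cells 5 UMIs (2.89 CPM, 0.937 to 6.73). Both intervals met that of CD4-gated cells over all libraries, 3.59 CPM (2.75 to 4.60).

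Il21 and Il4, the helper cytokines that act on B cells, had most of their UMIs in CD4-gated cells and in T cells with none of the gate genes. Il21 gave 16, 16, 9 and 1 UMIs in CD4-gated cells of libraries 1 to 4 (3.72, 4.19, 2.07 and 0.207 CPM) from 18 cells, and 7 of the 9 UMIs of library 3 came from 1 cell. No UMI of Il21 was found in 6257 CD8-gated cells, which allows a share of cells with a UMI of up to 0.0479% and a level of up to 0.0641 CPM, and 1 UMI each was found in Treg-gated and B-gated cells. Without library 4 the CD4 level of Il21 was 3.29 CPM, against 2.43 CPM with it. Il4 gave 7, 10, 5 and 4 UMIs in CD4-gated cells (1.63, 2.62, 1.15 and 0.828 CPM), 15 UMIs in all in T cells with none of the gate genes, 4, 0, 0 and 1 UMIs in gamma-delta-gated cells, and 5 UMIs in CD8-gated cells, 4 of them in 1 cell. No UMI of Il4 was found in 9079 B-gated cells. Maf, a factor that binds cytokine promoters in helper T cells, was found in 15 of the 16 CD4-gated cells with Il4 (93.8%, 69.8 to 99.8) and in 17 of the 18 with Il21 (94.4%, 72.7 to 99.9), against 6.83% of all CD4-gated cells. This was not particular to these genes. Maf was also found in 8 of 9 T cells with Il10 and 17 of 25 with Csf2, against 5.52% of all T cells. It was in 7 of the 10 cells of any class with Il17a. The median depth was 5846.5 UMIs in the cells with Il4, 7612 in those with Il21 and 5743 in all CD4-gated cells. Il4 and Il21 were found together in 9 cells, 4 in library 1 and 5 in library 2, and 6 of the 9 were in the T cell gates.

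Il10, Il17a and Csf2 were rare enough that single cells set their values. Il10, a suppressive cytokine, gave 3, 0, 0 and 1 UMIs in Treg-gated, 1, 4, 0 and 0 UMIs in CD4-gated and 1, 3, 0 and 0 UMIs in myeloid-gated cells, and without library 2 the CD4 level of 0.289 CPM was 0.0742 CPM. Il17a gave 0, 0, 2 and 7 UMIs in gamma-delta-gated cells, those of libraries 3 and 4 in 1 cell each, and 0 UMIs in 2871 CD4-gated cells, which allows a share of cells with a UMI of up to 0.104%. Without library 4 the gamma-delta level of 5.19 CPM was 1.6 CPM. Of the 23 Il17a UMIs, 18 lay in 6 cells with Trdc. Of the same 23 UMIs, 10 were in 4 mixed cells, and the one with 6 of them entered that set only through 12 UMIs of Cst3, a gene also found in 30.5% of CD4-gated cells. Csf2, which encodes the growth factor GM-CSF, gave 2, 2, 1 and 1 UMIs in gamma-delta-gated, 0, 0, 2 and 1 UMIs in NK-gated, 3, 0, 0 and 2 UMIs in CD8-gated and 0, 0, 1 and 3 UMIs in CD4-gated cells. T cells with none of the gate genes held more of its UMIs than any of these classes, 3, 3, 2 and 2 in 10 of its 35 cells. Of the 25 T cells with Csf2, 16 had the chemokine receptor gene Ccr6 (64.0%, 42.5 to 82.0), against 2.27% of all T cells, with median depths of 7837 and 6192 UMIs. Ccr6 was also found in 6 of the 10 cells with Il17a, in 3 of 26 T cells with Il21 and in 1 of 34 with Il4. Csf2 and Il17a were found together in 3 cells of library 3, of which only 1 was in the T cell gates.

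**Figure D2:**
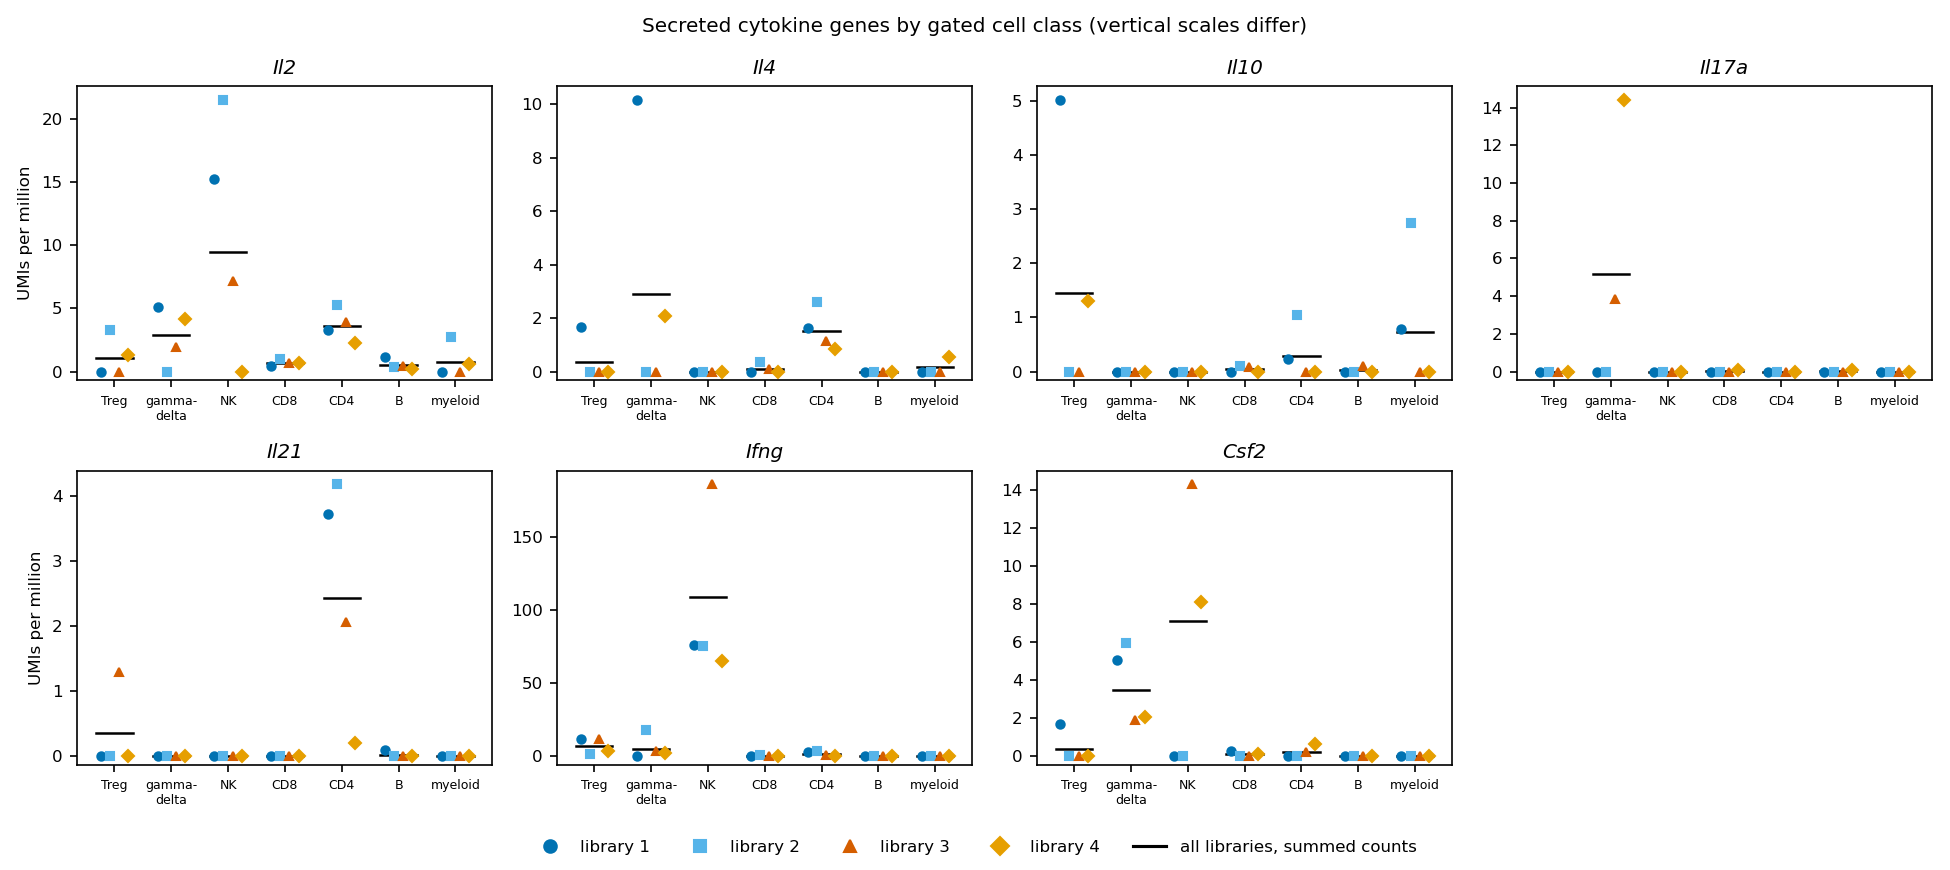
Levels of the 7 secreted members in CPM, for 7 gated classes. Each symbol is 1 of 4 libraries, each black line the level over all libraries, and vertical scales differ between panels. Ifng was highest in NK-gated cells (64.9 to 186 CPM), Il21 was found in CD4-gated cells, and Il17a in gamma-delta-gated cells of libraries 3 and 4.

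Counted per cell, a UMI of at least 1 secreted member was present in 37.5% of NK-gated cells (27 of 72, interval 26.4 to 49.7), 5.94% of gamma-delta-gated, 2.98% of Treg-gated, 0.831% of CD8-gated and 2.89% of CD4-gated cells, against 0.352% of B-gated cells. The CD4 share was 4.37%, 4.56%, 1.98% and 1.32% in libraries 1 to 4. Thinned to 1500 UMIs, the shares were 11.6% of NK-gated, 1.76% of gamma-delta-gated, 1.01% of Treg-gated, 0.128% of CD8-gated, 0.907% of CD4-gated and 0.134% of B-gated cells, so CD8-gated cells did not exceed B-gated cells at equal depth.

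Comparisons between classes used a fold rule within each library in place of a test. A test of the classes paired by library was not run. A gene was tested where at least 3 libraries had 10 or more UMIs over both classes, and called where the ratio was at least 1.5-fold in 1 direction in every such library. Members that pass this filter do so through the class where they are high, so the counts of members are set beside the share of all genes called and are no support on their own. Log2 ratios are of CPM over all libraries, with the exact counting interval in parentheses. Ratios given for an alternative setting carry a prior of 1 count per class, which by itself moves ratios that rest on few UMIs. CPM was also rescaled by the trimmed mean of M values (TMM).

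Treg-gated cells had lower Cd40lg than CD4-gated cells, and Il2 and Il21 met the rule on 3 and 1 Treg UMIs. Of the 10 members 6 could be tested, 0 were called higher and 3 lower, against 7.23% of 9734 genes called higher and 1.78% called lower. Cd40lg gave a log2 ratio of -1.43 (-1.76 to -1.12), with libraries between -2.21 and -0.98. Il2 rested on 3 UMIs in Treg-gated against 62 in CD4-gated cells, a ratio of -1.71 (-4.03 to -0.10). Il21 rested on 1 UMI in Treg-gated against 42 in CD4-gated cells, a ratio of -2.74 (-8.07 to -0.18). Both genes passed the filter through the CD4-gated class, and both intervals reach close to 0. Il21 could no longer be tested without library 1, 2 or 3. Tnfsf8 at -0.44 (-0.73 to -0.16) and Ifng at 2.02 (1.13 to 2.88) were not called, the libraries of Ifng running from -1.25 to 4.08. Tnfsf11 at 0.82 (0.21 to 1.38) was positive in all 4 libraries and missed the rule through library 1 (0.46), without which it was called higher at 1.07. The median over all tested genes was 0.21, and -0.06 after TMM scaling. With cells thinned to 1500 UMIs Cd40lg was no longer called (-1.09) and Il2 and Il21 had too few counts to be tested, as they did with a stricter cell filter. Mki67, a gene of dividing cells, was found in 12.2% of Treg-gated and 1.74% of CD4-gated cells, and its part in these ratios was not tested.

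Gene lists around the members are set beside the same 7.23% of all genes called higher and 1.78% lower in Treg-gated cells. The lists were chosen with earlier results of these data known. Their counts, here and in the later comparisons, therefore describe the classes and are no independent support. Of 10 tested receptor genes of the members 4 were called higher and 0 lower, among them Il2ra, the high-affinity IL-2 receptor chain (290 against 10.1 CPM, log2 ratio 4.85), Il2rb at 3.15 and Il10ra at 1.84. Of 16 receptor activation genes 4 were higher and 12 were not called, the higher ones including Tnfrsf4, which encodes the costimulatory receptor OX40 (491 against 39.4 CPM, 3.64), and Tnfrsf9 at 2.89. Of 11 follicular helper genes 5 were higher, including Maf at 2.40, Icos at 2.18 and Izumo1r, the folate receptor 4 gene, at 1.87. Of 10 naive and homing genes 5 were lower, such as Dapl1 at -2.97 and Igfbp4 at -2.02. Among 9 other lymphocyte cytokines 3 were higher and 1 lower. Genes of several helper types were higher, 3 of 4 for type 2, 3 of 5 for type 17 and 2 of 5 for type 1. They included Il1rl1, the IL-33 receptor gene, at 4.68 and the chemokine receptor gene Ccr6 at 3.47. Of 6 cytotoxic genes 3 were higher and 1 lower, with Klrg1 at 7.93, Gzmb at 6.62 and Klrd1 at -3.64.

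CD8-gated cells had lower Cd40lg, Tnfsf11 and Il2 than CD4-gated cells. Of 4 members tested, 0 were called higher and 3 lower, against 2.82% of 11064 genes called higher and 3.15% lower. The log2 ratio was -4.28 (-4.50 to -4.07) for Cd40lg, -2.86 (-3.39 to -2.35) for Tnfsf11 and -2.39 (-3.05 to -1.75) for Il2, and every library lay at or below -1.82. At 1500 UMIs a cell Il2 and Tnfsf11 had too few counts to be tested. The median over all genes was -0.12, and 0.02 after TMM scaling. Tnfsf8 was not called at -0.18 (-0.29 to -0.07), with libraries between -0.45 and 0.10. Il21 with 0 UMIs in CD8-gated against 42 in CD4-gated cells, Il4 with 5 against 26 and Ifng with 19 against 31 had too few counts in 3 libraries to be tested, and the upper limit of the Il21 ratio was -4.88. Of 11 other lymphocyte cytokines 3 were higher and 3 lower in CD8-gated cells. The chemokine genes Ccl5 (372 against 32.9 CPM, 3.5), Ccl4 (3.33) and Xcl1 (2.64) were higher, and Fasl, the death ligand gene, was lower at -2.05. All 7 tested cytotoxic genes were higher, led by Nkg7 at 5.31, and 6 of 7 type 1 genes were higher, including Eomes at 3.66. Maf was lower at -3.43 and Tnfrsf4 at -3.10.

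Gamma-delta-gated cells differed from CD4-gated cells in 1 of 4 tested members. Cd40lg was lower at -2.07 (-2.59 to -1.58), with libraries between -3.87 and -0.85, against 3.57% of 9612 genes called higher and 1.49% lower. Tnfsf8 at -0.06 (-0.38 to 0.24), Tnfsf11 at -0.24 (-1.34 to 0.69) and Il2 at -0.31 (-1.99 to 0.99) were not called, and these intervals leave room for differences of the size of the rule for Tnfsf11 and Il2. Il17a, with 9 UMIs in gamma-delta-gated against 0 in CD4-gated cells, Csf2, with 6 against 4 UMIs (3.90, 1.83 to 6.17), and Ifng, with 9 against 31 (1.53, 0.28 to 2.64), could not be tested. Against a floor of 3 UMIs in CD4-gated cells the Il17a level of 5.19 CPM compares with at most 0.173 CPM, and the 9 UMIs came from 2 cells. Of 9 type 17 genes tested 8 were higher, including Cd163l1, the scavenger receptor SCART1 gene, at 9.04 and Blk at 6.36. Of 6 type 1 genes 6 were higher, including Il18rap at 3.8 and Cxcr3 at 2.61. The median over all genes was 0.21, and -0.05 after TMM scaling.

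NK-gated cells had higher Ifng and lower Tnfsf8 than CD8-gated cells. Of 3 members tested, 1 was called higher and 2 lower, against 7.63% of 10634 genes called higher and 11.6% lower. Ifng was the member called higher, and without library 2, 3 or 4 fewer than 3 libraries had 10 UMIs, so it could no longer be tested, nor could it at 1500 UMIs a cell or with the stricter cell filter. Tnfsf8 was lower with 7 UMIs in NK-gated against 2361 in CD8-gated cells, at -1.6 (-2.92 to -0.56), and was no longer called with the T cell gate at 1 CD3 UMI (-1.28) or at 1500 UMIs a cell (-0.74). Cd40lg counted as lower with 0 UMIs in NK-gated against 203 in CD8-gated cells, but the upper limit of its ratio was 1.02, so a difference was not detectable at this depth. Lyz2, a myeloid gene, was found in 9.72% of NK-gated and 1.44% of CD8-gated cells, and its part was not tested. Of 11 other lymphocyte cytokines 4 were higher and 0 lower, namely Ccl4 (242 against 3.48 CPM, 6.12), Fasl (5.71), Ccl5 (4.97) and Xcl1 (4.17). Of 8 type 1 genes 7 were higher, including Il12rb2, an IL-12 receptor chain, at 6.47 and Tbx21, which encodes T-bet, at 4.31. The median over all genes was 0.56, and -0.05 after TMM scaling. On simulated counts the rule called unchanged genes far more often in this comparison than in the Treg, CD8 and gamma-delta comparisons. The spread of the simulated counts was set in advance and not estimated from the data. The rate of such calls in the real data is therefore not known, and the comparisons are not ranked by it. The follicular-marker comparison below, with 17 to 43 cells a library, was also simulated, and its rate is not reported here.

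**Figure D3:**
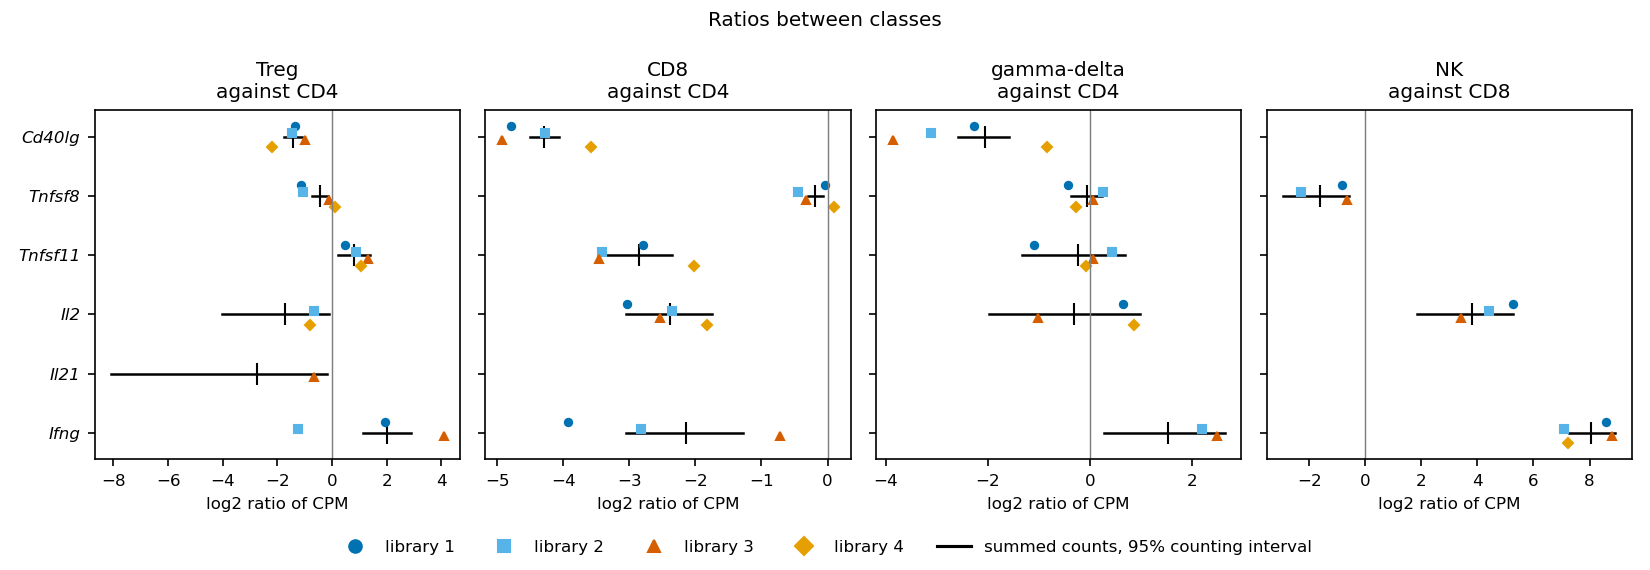
Log2 ratios of CPM for 6 members in 4 comparisons between classes, with the class named first on top of the ratio. Symbols are libraries in which both classes had a UMI, and black lines are the ratio over all libraries with its 95% counting interval. Values are drawn also where a gene had too few counts to be tested, and Cd40lg lay below 0 in every library of the Treg, CD8 and gamma-delta comparisons.

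Within the CD4 gate, cells with at least 2 of the 5 follicular helper markers Cxcr5, Pdcd1, Bcl6, Izumo1r and Tox2 were set against the rest. There were 121 such cells, 43, 41, 20 and 17 in libraries 1 to 4, with a median of 6597 UMIs, against 2750 other CD4-gated cells with 5717.5. A secreted member was found in 20.7% of the follicular-marker cells (13.8 to 29.0) and in 2.11% of the other cells (1.61 to 2.72), and thinning gave 5% and 0.728%. The share in follicular-marker cells was 20.9%, 31.7%, 5% and 11.8% in libraries 1 to 4, against 3.22%, 2.62%, 1.89% and 1.10% in other CD4-gated cells.

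Il21, the cytokine that drives germinal centre B cells, gave 8, 14, 0 and 0 UMIs in follicular-marker cells, against 8, 2, 9 and 1 UMIs in other CD4-gated cells. The levels were 22.7 CPM (14.2 to 34.3) and 1.23 CPM (0.748 to 1.89). The excess lay in libraries 1 and 2, and the 0 of libraries 3 and 4, with only 20 and 17 cells, allows up to 22.0 and 25.0 CPM. Ifng gave 7, 14, 0 and 0 UMIs in follicular-marker cells, 10 of the 14 in 1 cell, against 6, 1, 3 and 0 in other CD4-gated cells, or 21.6 CPM (13.4 to 33.1) and 0.613 CPM. Il4 gave 4, 4, 0 and 0 UMIs in follicular-marker cells against 3, 6, 5 and 4 in other CD4-gated cells, or 8.25 CPM (3.56 to 16.2) and 1.10 CPM (0.654 to 1.74). These 3 genes had at least 10 UMIs in no more than 2 libraries and could not be tested. No UMI of Il10, Il17a or Csf2 was found in the follicular-marker cells, which allows a level of up to 3.09 CPM for each.

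Of the 4 members tested in this split 1 was called higher and 0 lower, against 2.1% of 9363 genes called higher and 1.82% lower. Tnfsf11 gave 51.4, 33.9, 29.4 and 8.34 CPM in follicular-marker cells (20, 11, 4 and 1 UMIs), against 6.91, 6.58, 2.85 and 4.25 CPM in other CD4-gated cells. It was higher in all 4 libraries, with a log2 ratio of 2.88 (2.28 to 3.47), and could not be tested at 1500 UMIs a cell. The median over all genes was 0.26, and -0.06 after TMM scaling. Il2 at 2.29 (1.32 to 3.18) was not called, with 1, 8, 1 and 4 UMIs in follicular-marker cells against 13, 12, 16 and 7 in other CD4-gated cells, and was called higher at 3.06 without library 1. Tnfsf8 gave 126, 299, 73.4 and 25.0 CPM in follicular-marker cells, against 48.1, 51.2, 56.6 and 48.0 CPM in other CD4-gated cells, and 41 of its 97 UMIs in library 2 came from 1 cell. Its libraries ran from -0.94 to 2.55 and it was not called. Cd40lg gave 136, 102, 44.0 and 91.7 CPM in follicular-marker cells against 94.7, 75.2, 85.5 and 77.7 CPM in other CD4-gated cells and was not called at 0.35 (0.05 to 0.64).

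Seen from the members, 10 of the 18 CD4-gated cells with Il21 were follicular-marker cells (55.6%, 30.8 to 78.5), as were 7 of 14 with Ifng, 6 of 16 with Il4, 21 of 77 with Tnfsf11 and 8 of 41 with Il2, against 4.21% of all CD4-gated cells. Among cells with Cd40lg the follicular-marker share was 5.31% and among those with Tnfsf8 6.93%. CD4-gated cells with Il21 had a median of 7612 UMIs against 5735 without, and those with Tnfsf11 7301 against 5714.5. Mki67 was found in 5.79% of follicular-marker and 1.56% of other CD4-gated cells, and its part was not tested. Among genes not used for the split, Cd200 (207 against 24.9 CPM, 3.06), Cxcr3 (3.58) and Maf (3.21) were higher in follicular-marker cells, and 6 of 15 receptor activation genes were called higher and 0 lower, including Tnfrsf4 at 2.74, Nr4a3 at 2.53 and Egr2 at 2.35. Tnf, another T cell cytokine gene, was higher at 1.70. Il4ra, the IL-4 receptor gene, was lower in follicular-marker cells at -1.92, and Il2ra and Il2rb were higher at 1.98 and 2.37.

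**Figure D4:**
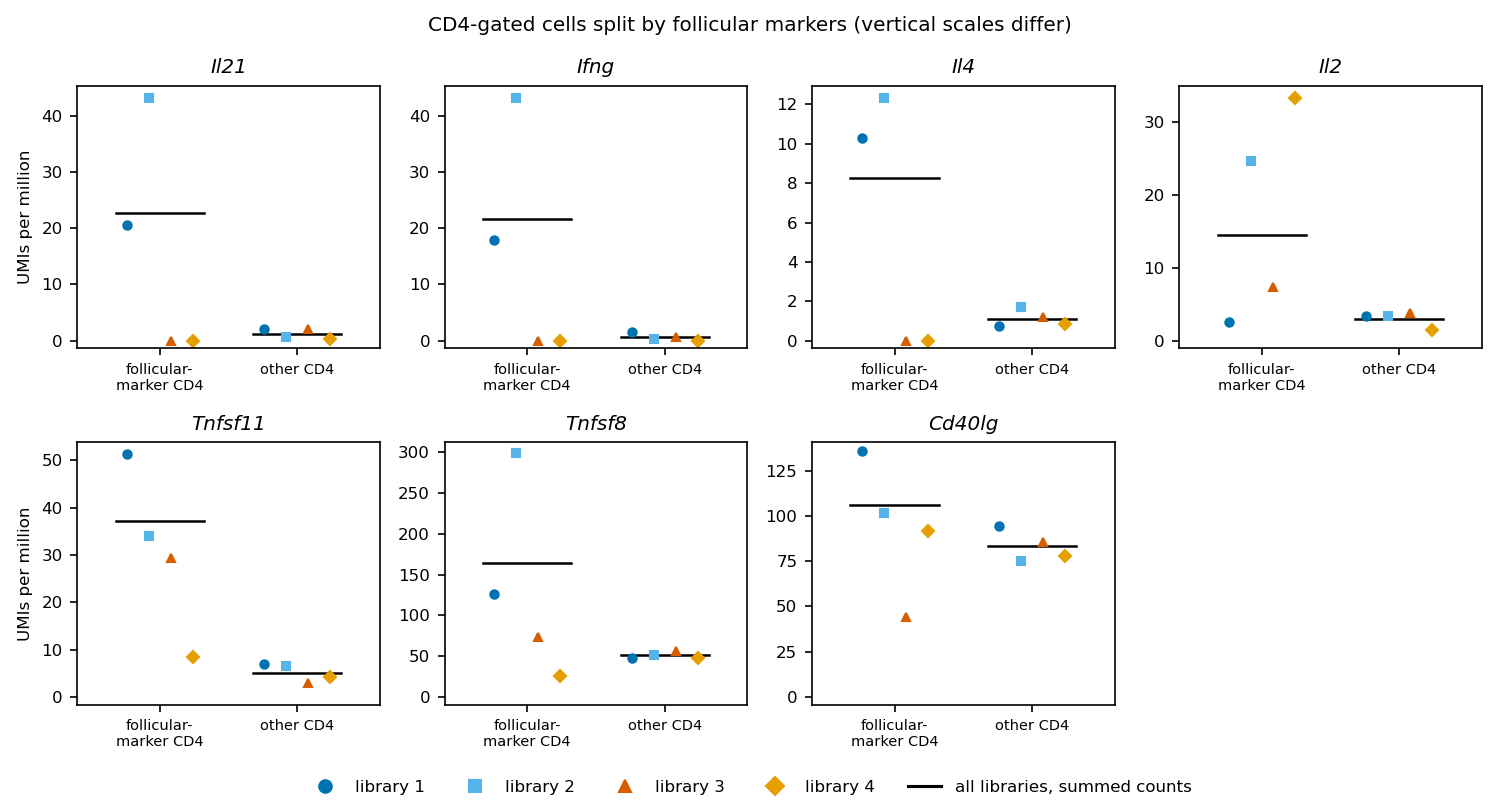
Levels of 7 members, in CPM, in follicular-marker and other CD4-gated cells. Symbols are the 4 libraries, black lines the level over all libraries, and vertical scales differ. Il21, Ifng and Il4 were present in follicular-marker cells of libraries 1 and 2 and at 0 UMIs in libraries 3 and 4, and Tnfsf11 was higher in all 4 libraries.

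Cells carrying a member were also set against cells of the same gate without it, in the T cell class that held most of its UMIs. Only Cd40lg in CD4-gated cells and Tnfsf8 in CD8-gated cells had the 20 cells in 3 or more libraries that this needed, and other gates were not compared. Among CD4-gated cells, 999 had Cd40lg (median 6158 UMIs) and 1872 did not (5526). Of 3 other members tested, 1 was called higher and 0 lower, against 0.652% of 9362 genes called higher and 0.0748% lower. Il2 gave 41 UMIs in cells with Cd40lg against 21 in cells without, or 6.26 and 1.95 CPM, a log2 ratio of 1.68 (0.89 to 2.51) with libraries between 0.61 and 2.50. The call was lost with TMM scaling (1.6) and the gene could not be tested at 1500 UMIs a cell. Tnfsf11 at 1.16 (0.61 to 1.72) was not called because of library 4 (0.45), without which it was called at 1.28, and Tnfsf8 at 0.52 (0.33 to 0.70) was not called. Il21 gave 31 UMIs in cells with Cd40lg against 11 in cells without but too few in 3 libraries to be tested. From the other lists, the cytokine genes Tnf at 1.05 and Lta at 0.75 and the chemokine receptor gene Ccr4 at 1.26 were higher in cells with Cd40lg, and no gene of the lists was lower.

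Among CD8-gated cells, 1771 had Tnfsf8 (median 7879 UMIs) and 4486 did not (6755.5). The only other member tested, Cd40lg, was not called, at 0.00 (-0.45 to 0.44), with 0.17% of 10580 genes called higher and 0.142% lower. Il2 with 15 against 17 UMIs, Ifng with 9 against 10 and Tnfsf11 with 23 against 21 had too few counts to be tested. Gzma and Gzmb, granule protease genes of effector lymphocytes, were lower in cells with Tnfsf8 at -3.41 (1.67 against 17.8 CPM) and -3.07 (0.468 against 3.93 CPM), as was Tmem176a at -1.41. The libraries of Gzma ran from -4.18 to -0.91, and only 78 of the 6257 CD8-gated cells had the gene. Gzmb rested on 7 against 125 UMIs. Of 7 tested cytotoxic genes these 2 were lower and 0 higher, and the list median was 0.01, with Prf1 at 45.8 against 45.4 CPM and Nkg7 at 573 against 518 CPM not called. In single cells the 2 ligands met in 629 of the 2545 cells with Cd40lg and the 3858 with Tnfsf8. Of these 629 cells, 541 were in the T cell gates and 255 were CD4-gated. In the CD4 gate 999 of 2871 cells had Cd40lg and 649 had Tnfsf8. Whether the 2 genes met more often than these shares and the depth of the cells would give was not tested.

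Among the 17 receptor genes of the members, the leading class differed from gene to gene. Cd40 was highest in myeloid-gated cells (162 CPM) and next in B-gated cells (56.1 CPM), and stood at 4.74 CPM in NK-gated cells from 2 UMIs. Tnfrsf11a, the receptor RANK, was highest in myeloid-gated cells at 98.6 CPM, as was Csf2rb at 243 CPM and Csf2ra at 47.3 CPM. Tnfrsf8, the receptor CD30, was scarce, with 13 UMIs in Treg-gated cells (4.73 CPM), 5 in gamma-delta-gated and 11 in myeloid-gated cells. Il2ra led in Treg-gated cells (290 CPM, then 48.5 in gamma-delta-gated cells) and Il2rb in NK-gated cells (747 CPM, then 216 in Treg-gated cells). Il2rg was level across the T and NK classes, from 244 CPM in CD8-gated to 267 CPM in Treg-gated cells with overlapping libraries, and stood at 189 CPM in B-gated and 84.1 CPM in myeloid-gated cells. Il21r led in B-gated cells at 71.3 CPM. Myeloid-gated cells followed at 56.2 CPM, with an interval that met those of Treg-gated (54.6), CD4-gated (53.2) and CD8-gated cells (51.8). The intervals of Il4ra met between B-gated (67.7 CPM) and myeloid-gated cells (59.6 CPM). Ifngr1 led in NK-gated cells at 322 CPM (then 238 in gamma-delta-gated cells) and Ifngr2 in myeloid-gated cells at 108 CPM (then 59.6 in B-gated cells). The intervals of Il10ra met between myeloid-gated (52.0 CPM) and NK-gated cells (45.0 CPM), and Il10rb led in NK-gated cells at 130 CPM. Il17ra was level across the T, B and NK classes. It stood at 56.5 CPM in Treg-gated, 54.8 in gamma-delta-gated, 55.2 in CD4-gated, 54.3 in CD8-gated, 52.6 in B-gated and 47.4 in NK-gated cells. Il17rc reached 3.46 CPM in gamma-delta-gated cells from 6 UMIs. Il13ra1, which pairs with Il4ra in the second IL-4 receptor, led in myeloid-gated cells at 63.4 CPM.

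**Figure D5:**
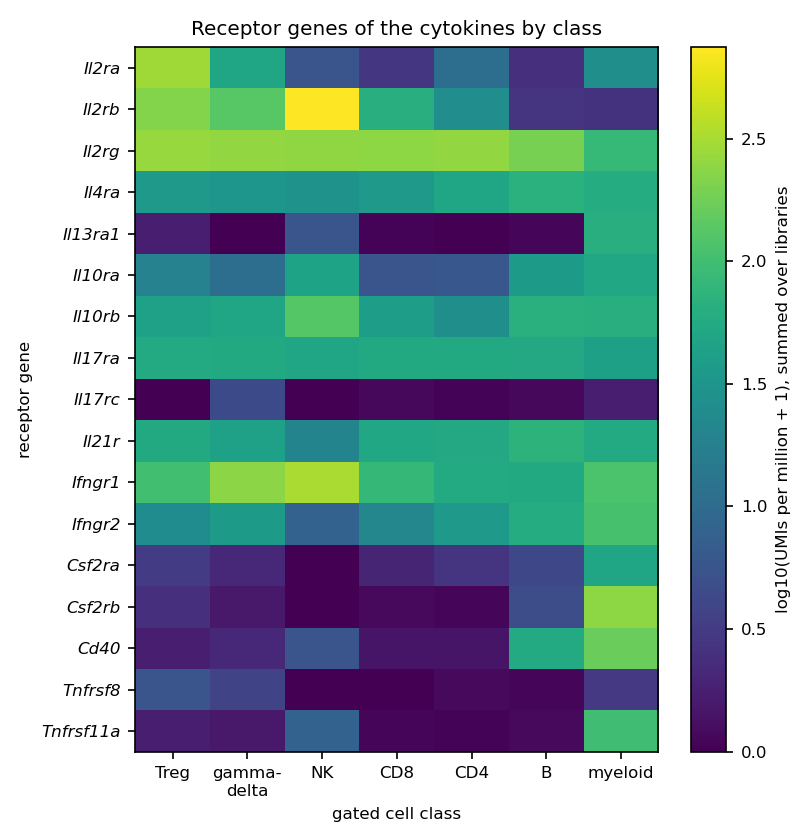
Levels of 17 receptor genes of the members in 7 gated classes, over all libraries, as log10 of CPM plus 1. Il2ra was highest in Treg-gated cells (290 CPM), Il2rb in NK-gated cells (747 CPM), and Cd40, Csf2rb and Tnfrsf11a in myeloid-gated cells.

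Other cytokine genes of lymphocytes were looked up in the same classes. Il3, Il5 and Il9 had no UMI in any of the 7 classes. Il13, a type 2 cytokine, had 1 UMI in CD8-gated and 5 in CD4-gated cells, Il22 had 1 UMI in CD4-gated and 1 in B-gated cells, and Il17f had 2 UMIs in gamma-delta-gated and 10 in CD4-gated cells, where Il17a had 9 and 0. A further 4 Il17f UMIs were in CD8-gated, 6 in B-gated and 1 in myeloid-gated cells, and its level was 0.578 CPM (0.277 to 1.06) in CD4-gated and 0.148 CPM (0.0543 to 0.322) in B-gated cells. Areg, which encodes the tissue repair factor amphiregulin, was found at 9.11 CPM in Treg-gated cells from 25 UMIs and at 0.463 CPM in CD4-gated cells. Tnfsf14, the ligand LIGHT, was highest in gamma-delta-gated cells at 19.0 CPM.

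For the 5 members with at least 100 UMIs in the gated classes, the most similar genes were sought over 28 points, the 7 classes in each of 4 libraries, on log2(CPM + 10). Points share a library or a class and its depth, so these correlations are descriptions of class patterns. Ifng was most like Tbx21 (Pearson r 0.96), Itga2 (0.95) and Klrb1a (0.95). Cd40lg was most like Ly6c1 (0.96), Adh1 (0.91) and Amigo2 (0.91), and Tnfsf8 most like Cd247 (0.93), 1700097N02Rik (0.93) and Utrn (0.93). Tnfsf11 was most like Pdcd1 (0.90), Izumo1r (0.89) and Sdcbp2 (0.88), and Il2, from 130 UMIs, most like Zfhx2 (0.87), Clcn4 (0.84) and Tgds (0.83).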

How the data were processed

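Single cells of inguinal tumour-draining nodes were profiled with a 10x Genomics 3' assay. The deposited file holds raw UMI counts per gene and barcode, made by the authors with cellranger 5.0.0 per the file headers and on build mm10 per the submitters' processing notes. Nothing ties library numbers to mice, although the series' design text says that each mouse had its own library. Libraries were therefore neither averaged nor tested against each other. No p-values were computed. The minimum was 300 genes per barcode and the maximum 10% mt- UMIs, and cells were gated by raw UMIs: at least 2 of the CD3 genes for T cells, 2 of a set of B cell genes that includes Cd79a, Cd79b and Ms4a1 and is not reported here in full for B cells, 2 of Ncr1, Klrb1c and Klre1 for NK cells, and 3 of Lyz2, Cst3, Fscn1, Csf1r, Siglech and Xcr1 for myeloid cells. Cells that met more than 1 of the T, B and myeloid gates (5 UMIs for myeloid genes here) were set apart as mixed. Doublets called by Scrublet (scanpy 1.11.5) were kept and removed as an alternative. No column of per-sample values was left unused (0).

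CPM came from UMI sums over all cells of a class in 1 library. A gene was tested where at least 3 libraries held 10 counts over both classes and called at 1.5-fold in every such library. Ratios printed have no prior, and those of the alternatives and of the named-gene ranking have a prior of 1 count per class. Named genes were all members, the receptors by leading classes, up to 4 called genes per list with the largest ratio to a limit of 20 per comparison, and the 3 genes most like a member; those printed are taken from these. TMM factors came from edgeR 4.0.16 in R 4.3.3. Other work used Python 3.11.15, numpy 2.4.6, pandas 2.3.3, scipy 1.17.1 and matplotlib 3.10.9. A count of 0 was bounded by 3 counts. Intervals are at the 95% level and cover counting error only. The members and gene lists were chosen with earlier results of these data known.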

Additional observations from a re-analysis of the deposited data

How the results depend on the processing

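No paired analysis was possible for treated against control mice, because no library could be assigned to a mouse or group. Libraries without a group were not tested as replicates or used as a replicate block. Both classes of a comparison were set against each other within each library instead. Each library holds both classes, so a class test paired by library needs no group label, but it was not run. Of 13 settings tried, 12 were planned; leaving Cst3 out of the mixed gate, and every setting for the comparisons of cells with and without a ligand, were chosen after seeing the data. Of the 12 member calls, thinning to 1500 UMIs ended 9, the 2-fold rule 7, the stricter cell filter (500 genes, 5% mt- UMIs) 4, TMM scaling 1, the T gate at 1 CD3 UMI 1, and leaving out 1 library 1 or 2. All 25 member ratios kept their direction and call with doublets removed, with Cd79a cells left out, with a minimum of 5 counts and without Cst3 in the gate. Most calls lost by thinning had too few counts left to test, and 1 more reversed: the Cd40lg ratio of NK-gated against CD8-gated cells, with 0 NK counts, was 0.86 with its prior of 1 count. Depth limits all rare members, and 72 NK-gated cells limit that class.

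Counts of genes called (higher, then lower) moved by over 1.5 times as follows. Thinning gave 255 and 110 for Treg-gated against CD4-gated cells (704 and 173 in the report's setting), 171 and 185 for CD8-gated against CD4-gated cells (312 and 349), 174 and 95 for gamma-delta-gated against CD4-gated cells (343 and 143), 366 higher for NK-gated against CD8-gated cells (811, with 1235 lower), 260 lower for follicular-marker against other CD4-gated cells (197 and 170), 31 and 76 for cells with against without Cd40lg (61 and 7), and 115 lower for cells with against without Tnfsf8 (18 and 15). TMM scaling, which moved the split of higher against lower calls, gave 469 and 310 for the Treg, 212 and 255 for the gamma-delta, 386 and 263 for the CD8, 360 and 1663 for the NK, and 88 and 317 for the follicular-marker comparison. A 2-fold rule gave 376 and 65 for the Treg, 191 and 172 for the CD8, 171 and 63 for the gamma-delta, 443 higher for the NK, 72 and 88 for the follicular-marker, 22 and 2 for the Cd40lg and 5 and 4 for the Tnfsf8 comparison. A minimum of 5 counts gave 219 lower for the gamma-delta, 337 lower for the follicular-marker, 93 and 18 for the Cd40lg and 38 and 36 for the Tnfsf8 comparison. The stricter cell filter gave 14 lower for the Cd40lg comparison. Leaving out 1 library gave 264 to 420 higher and 247 to 317 lower for the follicular-marker, 15 to 23 lower for the Cd40lg, and 28 to 43 higher and 18 to 26 lower for the Tnfsf8 comparison.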
